A study of Rattus norvegicus and Mus musculus with 10 samples.

Results

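Expression of 10 cytotoxic effector genes was followed in the lymphocytes of rat brain borders, cerebrospinal fluid (CSF) and blood and of mouse skull dura: Gzma, Gzmb, Gzmk, Prf1, Nkg7, Ctsw, Eomes, Tbx21, Xcl1 and Fasl. They were taken as a fixed list of symbols, of which 9 of 10 occur in the rat gene table (32883 gene IDs) and 10 of 10 in the mouse table (31053 gene IDs). Rat Fas ligand is listed under its other symbol, Faslg, and its values are given beside the 9 without being counted among them. Raw counts of unique molecular identifiers (UMIs) were summed over the cells of the authors' clusters named NK, CD8, gdTc (gamma delta T cells) and ILC (innate lymphoid cells) and scaled to the cluster's total, as CPM.

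The study profiled leukocytes of brain borders by droplet single-cell RNA sequencing. The rat groups were naive Lewis animals (25 in the study), with 1 library each of the central nervous system (CNS), the choroid plexus, the dura, the pia, the CSF and the blood. Cells of the CNS, choroid plexus, dura and pia were sorted as CD45+ and negative for a CD45 label given into the vein, CSF cells were not sorted, and blood cells came from a density gradient, so sort and compartment cannot be told apart. The mouse groups were C57BL/6 skull dura of 3 pooled animals at the peak of active experimental autoimmune encephalomyelitis (EAE) and of 4 pooled unimmunized (naive) animals, 1 library each. Mouse conditions follow the sample titles and the deposited condition of each barcode, since another label field gives EAE for every mouse sample. With 1 library per group there is no replicate check and no test: every interval printed is an exact 95% interval that covers counting error only.

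Natural killer (NK) cells and CD8 T cells kill targets by releasing granules. Perforin, the product of Prf1, opens pores in the target membrane, and granzymes, a family of serine proteases that includes those encoded by Gzma, Gzmb and Gzmk, act inside the target. Nkg7 encodes a granule membrane protein and Ctsw encodes cathepsin W, a protease of NK and CD8 cells. T-bet (Tbx21) and Eomes are the T-box transcription factors of these lineages. Xcl1 is the chemokine that binds XCR1 on cross-presenting dendritic cells, and Fas ligand kills cells that carry Fas by a route of its own.

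The rat NK cluster held 58 CNS, 311 choroid plexus, 357 dural, 164 pial, 275 CSF and 155 blood cells. Its median depth per cell was 2584 UMIs in the CNS, 1016 in the choroid plexus, 1195 in the dura, 666.5 in the pia, 2237 in the CSF and 2579 in blood. All 10 NK markers of a list (Ncr1, Klrd1, Klrk1 and others) had UMIs in every compartment, with a summed level of 7451 to 17315 CPM, lowest in the pia. The pial NK cluster also carried T cell RNA: its CD4 T cell list (Cd3e, Cd3d, Cd3g, Cd4 and Cd40lg) reached 2161 CPM, against 376 CPM in blood. Cd4 itself had no UMI in the pial cluster. The CD8 T cell list, which shares the Cd3 genes, reached 3857 CPM in the pia, against 2212 CPM in blood. In the pia 68 of 164 cells had no Cd3 UMI, against 127 of 155 blood cells. Log2 ratios for the 68 pial and 127 blood cells without a Cd3 UMI are given for the genes where such a ratio was formed. Myeloid markers summed to 15696 CPM in CNS NK cells, 6284 in the choroid plexus, 4142 in the dura, 4218 in the pia, 1824 in the CSF and 1564 in blood, and genes of dissociation stress (Fos, Jun, Egr1 and others) to 9665, 10751, 8682, 10499.8, 1252 and 1550 CPM in the same order. Their part in the results was not tested. Of the cell barcode sequences in the annotated data, 243 occurred in 2 or more rat libraries and 7 in both mouse libraries.

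In rat NK cells the granule genes split the compartments. CNS cells carried them at about the level of blood, while choroid plexus, dural, pial and CSF cells carried far less. Gzma stood at 8449.9 CPM in the CNS, 418 in the choroid plexus, 82.6 in the dura, 96.0 in the pia and 1098 in CSF NK cells, against 6748 CPM in blood. CNS and blood were high, CSF was intermediate, and dura and pia were the lowest, with intervals that overlap each other. Against blood, Gzma was lower by 81.7-fold in the dura (60.0 to 114), 70.3-fold in the pia (40.2 to 136), 16.1-fold in the choroid plexus (13.7 to 19.1) and 6.15-fold in the CSF (5.68 to 6.66), and it was 1.25-fold higher in the CNS (1.18 to 1.33).

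Prf1 followed with 6212 CPM in the CNS, 764 in the choroid plexus, 508 in the dura, 184 in the pia and 1549 in the CSF, against 4529 CPM in blood. Here too CNS and blood formed the high end, and the pia was the lowest, 24.6-fold below blood (16.4 to 38.9). The dura was 8.92-fold lower than blood (7.82 to 10.2), the choroid plexus 5.93-fold (5.23 to 6.73) and the CSF 2.92-fold (2.71 to 3.15), while CNS was 1.37-fold higher (1.28 to 1.48).

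Gzmb measured 2291 CPM in the CNS, 405 in the choroid plexus, 381 in the dura, 328 in the pia and 365 in the CSF, against 2169 CPM in blood. The 4 low compartments had overlapping intervals and lay 5.36-fold to 6.61-fold below blood. CNS and blood did not differ beyond counting error (ratio 1.06, 0.940 to 1.18). Gzmk measured 6122 CPM in the CNS, 1201 in the choroid plexus, 1048 in the dura, 616 in the pia and 1126 in the CSF, against 5481 CPM in blood. Gzmk was thus 4.56-fold (choroid plexus), 5.23-fold (dura), 8.89-fold (pia) and 4.87-fold (CSF) lower than blood. Rat Gzmb has several close relatives in the gene table, and reads shared among such copies could be split by the counting, so its absolute level is uncertain.

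**Figure D1:**
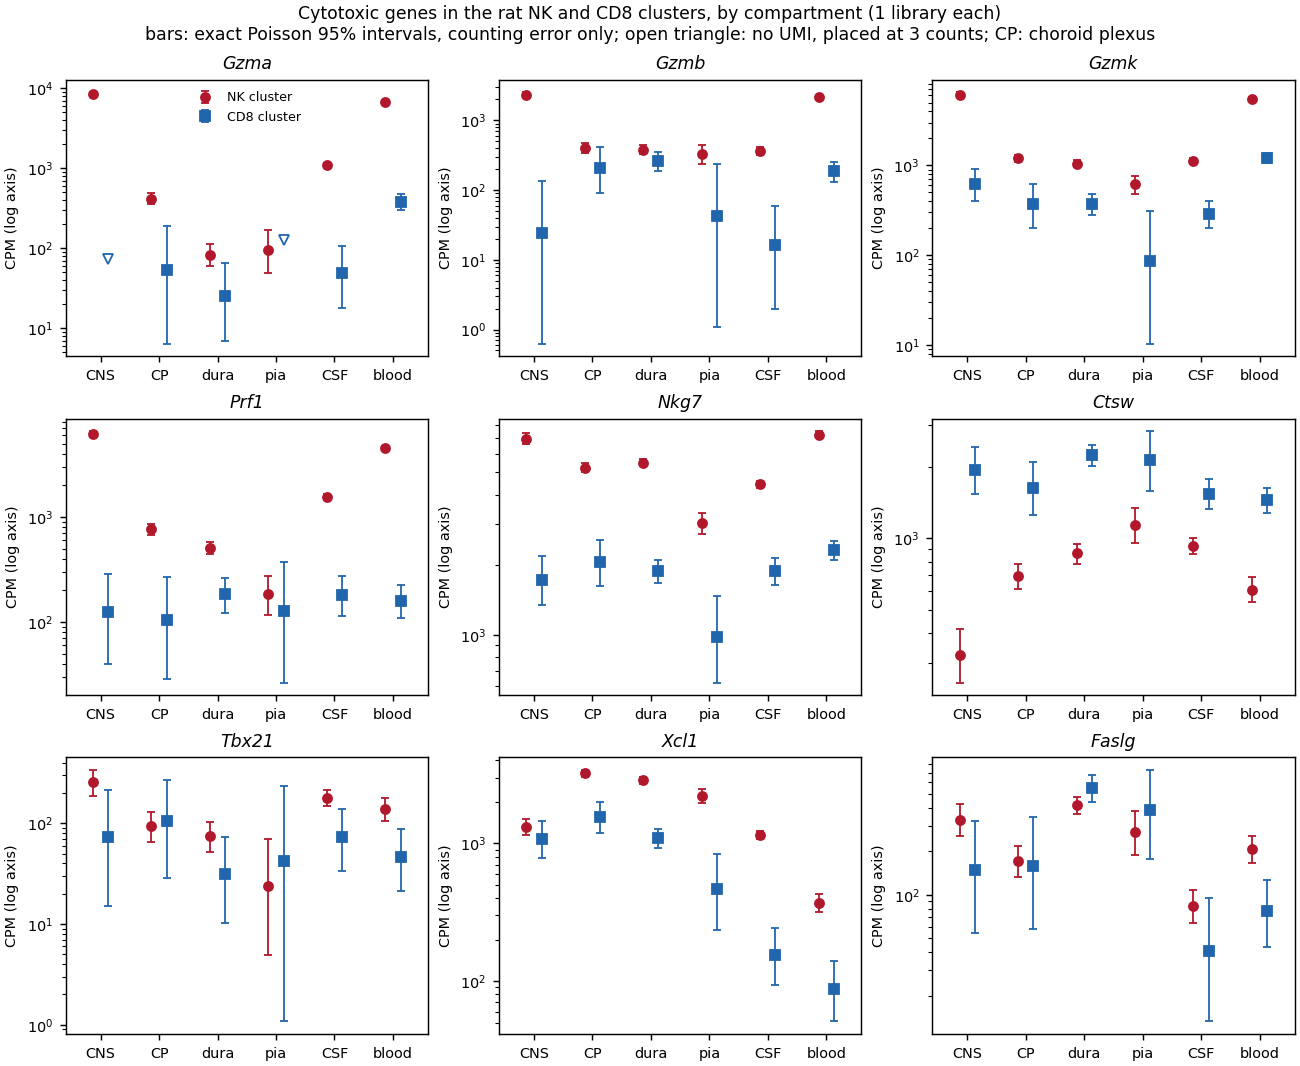
CPM (log axis) of 8 cytotoxic genes and of Faslg in the rat NK cluster (red circles) and CD8 cluster (blue squares) by compartment, with exact Poisson 95% intervals; open triangles mark clusters without a UMI, placed at 3 counts. In NK cells Gzma reaches 8449.9 CPM in the CNS and 6748 CPM in blood but 82.6 CPM in the dura, while Xcl1 is lowest in blood at 369 CPM.

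The 250 bases upstream of the transcription start of the 4 granule genes and of Xcl1, which moved the other way between compartments, are shown because the granule genes moved together. They are RefSeq sequences of the rat build GRCr8, which is not the build of the deposited counts. Gzma lies at chr2:46485697-46485946 (minus strand), Gzmb at chr15:34462470-34462719 (minus strand), Gzmk at chr2:46582016-46582265 (minus strand), Prf1 at chr20:29788790-29789039 (plus strand) and Xcl1 at chr13:79785441-79785690 (minus strand), each written 5′ to 3′ in the direction of the gene. Capitals mark the RUNX core TGTGGT or its reverse complement ACCACA. RUNX factors are transcriptional regulators of NK and CD8 T cells.
Gzma: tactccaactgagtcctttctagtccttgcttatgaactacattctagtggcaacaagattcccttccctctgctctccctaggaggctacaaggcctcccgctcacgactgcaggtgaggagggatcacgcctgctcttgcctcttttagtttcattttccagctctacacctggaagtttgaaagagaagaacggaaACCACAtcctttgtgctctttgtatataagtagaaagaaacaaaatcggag
Gzmb: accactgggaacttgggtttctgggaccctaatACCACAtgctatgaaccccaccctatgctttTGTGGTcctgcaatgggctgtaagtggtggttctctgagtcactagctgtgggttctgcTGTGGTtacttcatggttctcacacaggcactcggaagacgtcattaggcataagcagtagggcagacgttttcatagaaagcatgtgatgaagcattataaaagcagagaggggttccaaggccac
Gzmk: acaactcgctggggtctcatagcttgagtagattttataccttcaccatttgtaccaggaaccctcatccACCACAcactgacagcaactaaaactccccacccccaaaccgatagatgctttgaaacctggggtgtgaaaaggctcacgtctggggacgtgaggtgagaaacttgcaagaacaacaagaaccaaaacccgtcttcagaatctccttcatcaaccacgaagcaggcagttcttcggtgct
Prf1: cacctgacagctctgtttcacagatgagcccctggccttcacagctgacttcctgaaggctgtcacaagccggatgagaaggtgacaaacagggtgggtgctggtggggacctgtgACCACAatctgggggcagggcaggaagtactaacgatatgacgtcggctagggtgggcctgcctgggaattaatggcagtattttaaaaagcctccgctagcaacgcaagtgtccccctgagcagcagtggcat
Xcl1: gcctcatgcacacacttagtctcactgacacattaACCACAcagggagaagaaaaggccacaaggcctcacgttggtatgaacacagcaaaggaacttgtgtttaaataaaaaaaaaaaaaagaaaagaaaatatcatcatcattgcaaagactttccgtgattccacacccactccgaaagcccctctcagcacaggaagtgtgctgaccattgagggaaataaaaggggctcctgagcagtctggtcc

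A RUNX core was found in 7 of the 9 member windows (Faslg included), namely those of Eomes, Gzma, Gzmb, Gzmk, Nkg7, Prf1 and Xcl1, and in 14.5% of all 33469 rat windows of this length. Gzmb held 3 of them and each of the others 1. The T-box letters AGGTGTGA (both strands) were in 0 of the 9 windows and in 0.959% of all windows. The 2 motifs do not overlap in any member window, since none holds the T-box letters. These matches describe letters in the windows and nothing about binding. In the mouse, Gzma (chr13:113093825-113100981) and Gzmk (chr13:113171608-113225908) both lie on the minus strand of GRCm38, with Gzmb on chromosome 14 and Prf1 on chromosome 10.

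Summed over Gzma, Gzmb, Gzmk and Prf1, NK cells carried 23075 CPM in the CNS, 2788 in the choroid plexus, 2019.7 in the dura, 1224 in the pia and 4138 in the CSF, against 18927 CPM in blood. To compare shares of cells at one depth, each cell was thinned to 500 UMIs, which left out 24 pial and 5 choroid plexus cells. At that depth 90.0% of CNS cells (79.2 to 96.3) carried a UMI of any of the 4 genes, 64.5% of choroid plexus (58.9 to 69.9), 56.6% of dural (51.3 to 61.8), 36.7% of pial (28.7 to 45.3) and 57.6% of CSF cells (51.5 to 63.5), against 91.8% of blood cells (86.3 to 95.6). Without thinning the shares were 96.6%, 84.6%, 79.3%, 44.5% and 86.5%, against 96.8% in blood.

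Of these 4 genes, Gzma had the steepest step in share. Its thinned share was 75.1% in the CNS, 8.85% in the choroid plexus, 2.13% in the dura, 3.30% in the pia and 17.5% in the CSF, against 60.4% in blood. Unthinned, 17 of 357 dural cells (4.76%) and 6 of 164 pial cells (3.66%) had a Gzma UMI, against 110 of 155 blood cells. In the dura, 1 of 836 cells of B cell cluster Bc1 (0.120%, median 850.5 UMIs, against 1195 for NK cells) and 2 of 1238 cells of cluster myeloid1 had one, so the dural NK share lay above that background. In blood, 27 of 1226 Bc1 cells (2.20%) and 9 of 93 myeloid1 cells (9.68%) had a Gzma UMI. The dural and pial Gzma counts were also concentrated: the 5 cells with most UMIs held 70.7% of 41 dural and 91.7% of 12 pial UMIs, against 17.5% in blood.

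**Figure D2:**
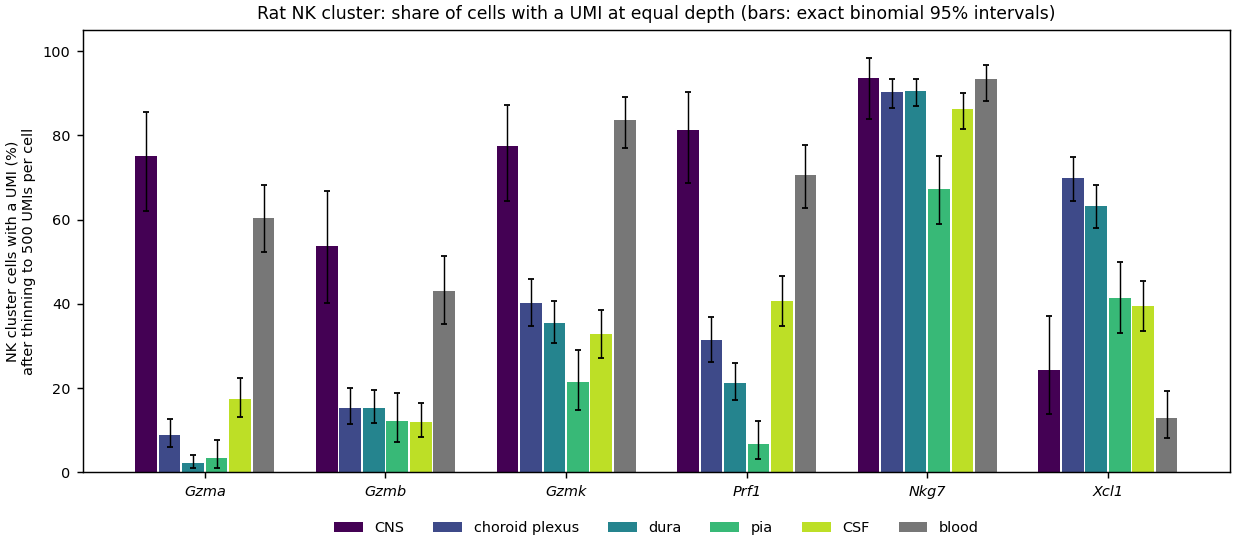
Share of rat NK cluster cells (%) with a UMI of 6 genes after thinning each cell to 500 UMIs, by compartment, with exact binomial 95% intervals. For Gzma the bars fall to 2.13% in the dura, against 60.4% in blood, while for Nkg7 all compartments but the pia lie at 86.2% or above.

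Joint detection of the granule genes in the same cells was counted without thinning. UMIs of at least 3 of the 4 genes were seen in 79.3% of CNS, 18.3% of choroid plexus, 11.2% of dural, 1.22% of pial and 25.5% of CSF cells, against 77.4% of blood cells. Of cells with a Gzma UMI, 46 of 46 in the CNS, 24 of 39 in the choroid plexus, 9 of 17 in the dura, 0 of 6 in the pia and 58 of 63 in the CSF also had a Prf1 UMI, against 108 of 110 in blood. These joint shares follow depth as well as level, and their depths differ as given above.

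In all compartments but the CNS Nkg7 moved in the same direction as the granzymes but less far, and Ctsw had another order. Nkg7 was 6942 CPM in the CNS, 5215 in the choroid plexus, 5491 in the dura, 3017 in the pia and 4436 in the CSF, against 7235 CPM in blood. Every compartment but the pia stayed within 2-fold of blood, and the pia was 2.40-fold lower (2.15 to 2.68), a difference within 2-fold under TMM scaling (Nkg7 log2 ratio -0.97). Ctsw was 325 CPM in the CNS, 694 in the choroid plexus, 865 in the dura, 1136 in the pia and 933 in the CSF, against 609.7 CPM in blood. Ctsw was lowest in the CNS (1.88-fold below blood, 1.42 to 2.52) and highest in the pia (1.86-fold above, 1.51 to 2.29). In cells without a Cd3 UMI the pial log2 ratio of Ctsw was 0.19, against 0.90 with all cells. Ctsw was 2136 CPM in the pial CD8 cluster.

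The transcription factors were sparse. Tbx21 was 256 CPM in the CNS, 93.8 in the choroid plexus, 74.6 in the dura, 24.0 in the pia and 178 in the CSF, against 138 CPM in blood. CNS was 1.85-fold above blood (1.24 to 2.74), and the pia, with 3 UMIs, had a ratio to blood of 0.174 (0.0348 to 0.532). In the 27 pial cells of 1000 or more UMIs the log2 ratio of Tbx21 was -0.81, within 2-fold, and without cells with a Cd3 UMI it was -2.03. Eomes was barely detected in rat NK cells: 5 UMIs in the CNS, 9 in the choroid plexus, 8 in the dura, 1 in the pia and 4 in the CSF, against 7 in blood, which is too few for a comparison.

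Xcl1 was higher than in blood in every compartment. NK cells carried 1316 CPM in the CNS, 3219.95 in the choroid plexus, 2866 in the dura, 2209 in the pia and 1155 in the CSF, against 369 CPM in blood. The choroid plexus, the dura and the pia were highest. The excess over blood was 8.72-fold in the choroid plexus (7.39 to 10.3), 7.76-fold in the dura (6.59 to 9.18), 5.98-fold in the pia (4.91 to 7.30), 3.56-fold in the CNS (2.91 to 4.37) and 3.13-fold in the CSF (2.64 to 3.72). At 500 UMIs per cell, 24.2% of CNS, 69.8% of choroid plexus, 63.3% of dural, 41.3% of pial and 39.5% of CSF cells had a Xcl1 UMI, against 12.9% of blood cells. In CNS the 5 cells with most UMIs held 60.3% of the Xcl1 count, and without them its log2 ratio was 1.19, against 1.83 with all cells.

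Faslg was 330.3 CPM in the CNS, 172 in the choroid plexus, 417 in the dura, 272 in the pia and 84.2 in the CSF, against 206 CPM in blood. The dura was 2.02-fold above blood (1.57 to 2.62) and the CSF 2.45-fold below it (1.75 to 3.46). For the dura, leaving out cells with a Cd3 UMI gave a log2 ratio of 0.89, within 2-fold. For the pia it gave a log2 ratio of -0.45, against 0.40 with all cells.

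Counted over the 8 members with at least 20 UMIs on both sides together, 1 was past 2-fold upwards and 0 downwards in CNS over blood, where 6.31% of all genes tested were higher and 8.04% lower (14.3% either way). In choroid plexus 1 member was higher and 4 lower, beside 8.44% and 17.0% of all genes (25.4% either way). In dura 1 was higher and 4 lower, beside 10.5% and 10.8% (21.3%). In pia 1 was higher and 6 lower, beside 7.47% and 23.8% (31.3%). In CSF 1 was higher and 4 lower, beside 8.75% and 14.5% (23.3%). In each, Xcl1 was the member that was higher, and Gzma, Gzmb, Gzmk and Prf1 were lower in all but the CNS, with Nkg7 and Tbx21 lower too in the pia. The median log2 ratio of the members was 0.24 in the CNS, -1.37 in the choroid plexus, -1.64 in the dura, -2.63 in the pia and -1.13 in the CSF, beside medians over all genes of -0.01, -0.24, -0.05, -0.32 and -0.23. In pial cells without a Cd3 UMI the log2 ratios of Gzma, Gzmb, Gzmk and Prf1 were -6.70, -2.53, -2.86 and -4.59, that of Nkg7 came within 2-fold (-0.96), and Xcl1 was 3.08.

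**Figure D3:**
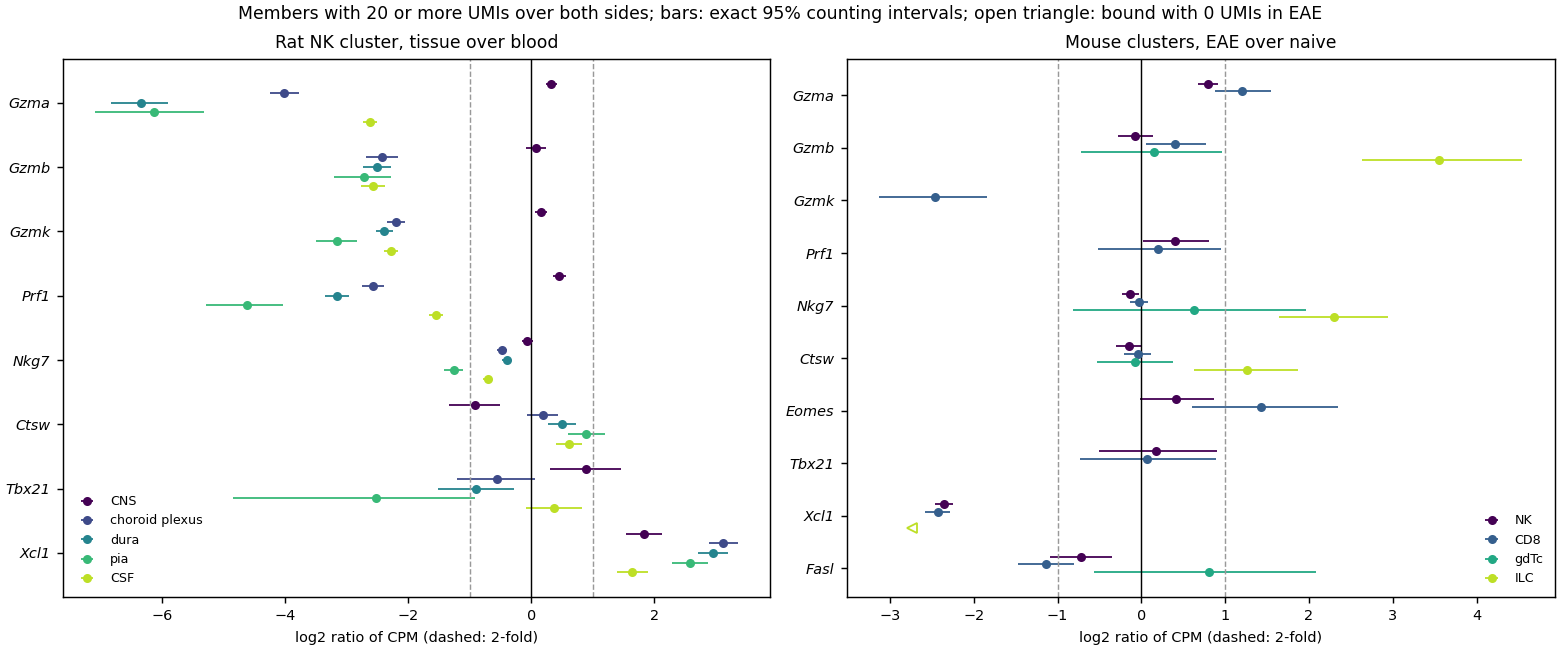
Log2 ratio of CPM for members with at least 20 UMIs, rat NK compartments over blood (left) and mouse clusters, EAE over naive (right), with exact 95% counting intervals and dashed lines at 2-fold. The rat granule genes lie left of the line in all compartments but the CNS and Xcl1 lies right of it in all; in mouse NK and CD8 cells Xcl1 lies left, at -2.35 and -2.43.

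Other genes of the cytotoxic programme were read from lists. Of the other granzymes, the rat NK cluster gave Gzmm alone enough counts. Gzmm was 3927 CPM in the CNS, 2767 in the choroid plexus, 3286 in the dura, 1392.5 in the pia and 3079 in the CSF, against 6929 CPM in blood. It was 1.76-fold below blood in the CNS and past 2-fold in each of the other compartments, with a pial log2 ratio of -2.57 in cells without a Cd3 UMI. Among genes of granule making and release, 2 of 10 tested were higher and 0 lower in the CNS, 0 and 4 in the choroid plexus, 0 and 1 in the dura, 1 and 3 in the pia, and 1 and 2 in the CSF. The shares of all genes that were lower, 8.04%, 17.0%, 10.8%, 23.8% and 14.5% in the same order, leave the counts in the dura, the pia and the CSF near the background. Those that were higher were 6.31%, 8.44%, 10.5%, 7.47% and 8.75%. The 2 higher in the CNS were Lamp1 (95.9, against 45.3 CPM) and Lamp2 (298, against 70.3 CPM). Every CNS NK cell carried 3 or more UMIs of B cell or of myeloid markers, whose part was not tested. Serpinb9, which encodes an inhibitor of granzyme B, was among the lower ones, at 75.1 CPM in the choroid plexus, 64.5 in the dura and 48.0 in the pia, with 181 in the CNS and 143 in the CSF, against 206 CPM in blood (pial log2 ratio -1.73 without Cd3 cells).

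Genes of a list of NK and cytokine receptors went both ways. Of 16 tested 0 were higher and 1 lower in the CNS, of 17 in the choroid plexus 2 and 5, of 18 in the dura 4 and 3, of 16 in the pia 1 and 7, and of 17 in the CSF 2 and 8. Beside these stand 6.31% and 8.04% of all genes in the CNS, 8.44% and 17.0% in the choroid plexus, 10.5% and 10.8% in the dura, 7.47% and 23.8% in the pia and 8.75% and 14.5% in the CSF. Of the receptors named here, chosen after their values were seen, S1pr5, the receptor that lets NK cells leave tissues, had 14 UMIs in the CNS, 1 in the choroid plexus, 0 in the dura, 0 in the pia and 23 in the CSF, against 39 in blood, which is 88.4 CPM. Klrg1, an inhibitory receptor of mature NK cells, was 213 CPM in the CNS, 50.9 in the choroid plexus, 18.1 in the dura, 0 in the pia and 51.4 in the CSF, against 233 CPM in blood. The Fc receptor gene Fcgr3a was 123 CPM in the CNS, 34.9 in the choroid plexus, 2.02 in the dura, 16.0 in the pia and 31.4 in the CSF, against 129 CPM in blood. Without Cd3 cells the pial log2 ratio was -1.36 for Fcgr3a and -2.31, computed at the floor of 3 counts, for Klrg1. In the other direction, Il18r1, a subunit of the interleukin 18 receptor, had 2 UMIs in the CNS (10.7 CPM) and was 150.1 CPM in the choroid plexus, 198 in the dura, 160.1 in the pia and 54.2 in the CSF, against 15.9 CPM in blood.

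Of 5 transcription factors of a list tested in the CNS, 0 were higher and 0 lower, beside 6.31% and 8.04% of all genes. Of 6 in the choroid plexus 1 was higher and 2 lower, beside 8.44% and 17.0%. Of 6 in the dura it was 1 and 2, beside 10.5% and 10.8%. Of 4 in the pia it was 0 and 2 (7.47% and 23.8%), and of 7 in the CSF 0 and 2 (8.75% and 14.5%). Id2 was the higher one in the choroid plexus, at 1105 CPM, against 417 CPM in blood. Hopx was 1199 CPM in the CNS, 308 in the choroid plexus, 280.2 in the dura, 288 in the pia and 447 in the CSF, against 1376 CPM in blood. Zeb2, a factor of terminal NK maturation in the mouse, was 37.3 CPM in the CNS, 13.4 in the choroid plexus, 8.06 in the dura and 9.99 in the CSF, with 1 UMI in the pia, against 52.1 CPM in blood. Of a list of effector cytokines and death ligands, 1 of 3 tested was higher and 0 lower in the CNS. Of 4 in the choroid plexus it was 1 and 0, and of 4 in the dura 1 and 1. Of 3 in the pia it was 1 and 1, and of 4 in the CSF 1 and 3. Beside these stand the shares of all genes just given. Tnfsf10 was higher in the choroid plexus (50.9 CPM), the dura (60.5) and the CSF (28.5), against 9.07 CPM in blood, from 4 UMIs. The chemokine Ccl5 was 50219.8 CPM in the CNS, 29360.3 in the choroid plexus, 23773 in the dura, 16406 in the pia and 14089.7 in the CSF, against 54403 CPM in blood. Without Cd3 cells the pial log2 ratio was -2.64 for Hopx and -1.70 for Ccl5. Ccl4 was 4225 CPM in the CNS and 5249.9 in the pia but 338 in the CSF, against 1784 CPM in blood, and in pial cells without a Cd3 UMI its log2 ratio was -0.59.

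The rat CD8 cluster was smaller, with 114 dural, 52 CSF and 56 blood cells, and 13 CNS, 37 choroid plexus and 31 pial cells for which no ratio was formed. All 6 CD8 T cell markers of a list (Cd3e, Cd8a, Cd8b and others) were detected in every compartment, as in the NK cluster outside the CNS. A UMI of Cd8a, Cd8b or Cd8b1 was found in 84 of 114 dural and 43 of 52 CSF cells, against 55 of 56 blood cells. NK markers summed to 3612 CPM in dural and 2322 in CSF CD8 cells, against 2683 CPM in blood. Stress genes summed to 6951 CPM in dural and 1189.6 in CSF CD8 cells, against 1112 CPM in blood. Myeloid markers summed to 1527 CPM in the dura and 1912 in the CSF, against 675 CPM in blood, and neutrophil markers to 114 and 648, against 10.3 CPM. The part of the NK, stress, myeloid and neutrophil genes in the results was not tested. Gzma was 25.3 CPM in the dura and 49.2 in the CSF, against 381 CPM in blood, with 4 and 6 UMIs against 74. In blood 81.1% of that count came from 5 cells. Gzmk was 368 CPM in the dura and 287 in the CSF, against 1199.8 CPM in blood, so 3.26-fold (2.44 to 4.43) and 4.18-fold (2.92 to 6.14) lower. Gzmb was 259.8 CPM in the dura and 16.4 in the CSF, against 185 CPM in blood, and only the CSF value, from 2 UMIs, lay past 2-fold. Without the 5 cells with most UMIs on each side, Gzma had too few UMIs for a ratio in the dura and in the CSF. Gzmb then had too few for a CSF ratio. Prf1, at 184 and 180.5 CPM, against 159.6 CPM in blood, had ratios whose intervals include 1 (0.669 to 1.97 in the dura, 0.624 to 2.02 in the CSF).

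Xcl1 was 1089.9 CPM in dural CD8 cells and 156 in the CSF, against 87.5 CPM in blood. Dura was 12.5-fold above blood (7.55 to 21.9), while the CSF ratio of 1.78 had an interval that includes 1 (0.876 to 3.65). At 500 UMIs per cell, 23.3% of dural and 7.74% of CSF CD8 cells had a Xcl1 UMI, against 4.06% in blood. Faslg was 545 CPM in the dura and 41.0 in the CSF, against 77.2 CPM in blood, 7.06-fold higher in the dura (4.05 to 13.1). Ctsw was 2230.4 CPM in the dura and 1542 in the CSF, against 1447 CPM in blood, and Nkg7 1876 and 1879, against 2312. Of 7 members tested, 1 was higher and 2 lower in the dura, beside 9.53% and 10.3% of all genes (19.8% either way). In CSF 0 were higher and 3 lower, beside 5.98% and 21.4% (27.4%). In the compartments without a ratio, Xcl1 was 1084 CPM in the CNS, 1553 in the choroid plexus and 469.9 in the pia, and Gzma had 0 UMIs in the CNS and pia.

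In the mouse dura the NK cluster held 154 EAE and 106 naive cells with medians of 7307 and 4319 UMIs. NK markers summed to 6911 CPM in EAE and 7979 in naive cells, and the CD8 T cell list to 1038 and 1333 CPM. No Cd3 UMI was found in 109 of the EAE and 80 of the naive cells. The lowest EAE cell of the library had 5722 UMIs, against 503 in the naive library. Gzma was 2203 CPM in EAE, against 1271 CPM in naive NK cells, a ratio of 1.73 (1.59 to 1.89) and within 2-fold. Without the 5 cells with most Gzma UMIs on each side the log2 ratio was 1.21, against 0.79 with all cells, and among the 11 EAE and 81 naive cells with few B cell and myeloid UMIs it was -0.18. After thinning each cell to 1000 UMIs, 53.1% of EAE cells (44.9 to 61.2) and 31.5% of naive cells (22.8 to 41.2) had a Gzma UMI. Prf1 was 179 CPM in EAE, against 135 CPM (ratio 1.32, 1.01 to 1.75), and Gzmb was 499.5 CPM in EAE, against 527 CPM. Gzmk was nearly absent, with 13 EAE UMIs and 1 naive UMI. UMIs of at least 3 of the 4 granule genes occurred in 35.7% of EAE cells and 10.4% of naive cells, at the unequal depths above.

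Of the 9 members with enough UMIs for a ratio, Xcl1 was furthest from its naive level in mouse NK cells: 837 CPM in EAE, against 4276 CPM in naive cells, 5.11-fold lower (4.74 to 5.50). The thinned share of cells with a Xcl1 UMI was 43.7% in EAE and 85.2% in naive cells, with intervals that do not overlap. Of cells in the granulocyte cluster granulo1 (median 14547 UMIs in EAE and 3295.5 in naive), 2.26% and 3.75% had a Xcl1 UMI. Nkg7 was 1816 CPM in EAE, against 1989.6 CPM, and Ctsw 812, against 901. Fasl was 119.9 CPM in EAE, against 197 CPM (1.65-fold lower, 1.27 to 2.13). Eomes was 148 CPM in EAE, against 111 CPM, and Tbx21 53.1, against 47.0, both with intervals that include 1. Of 9 members tested, 0 were higher past 2-fold and 1, Xcl1, was lower, beside 8.01% and 7.06% of all genes (15.1% either way).

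**Figure D4:**
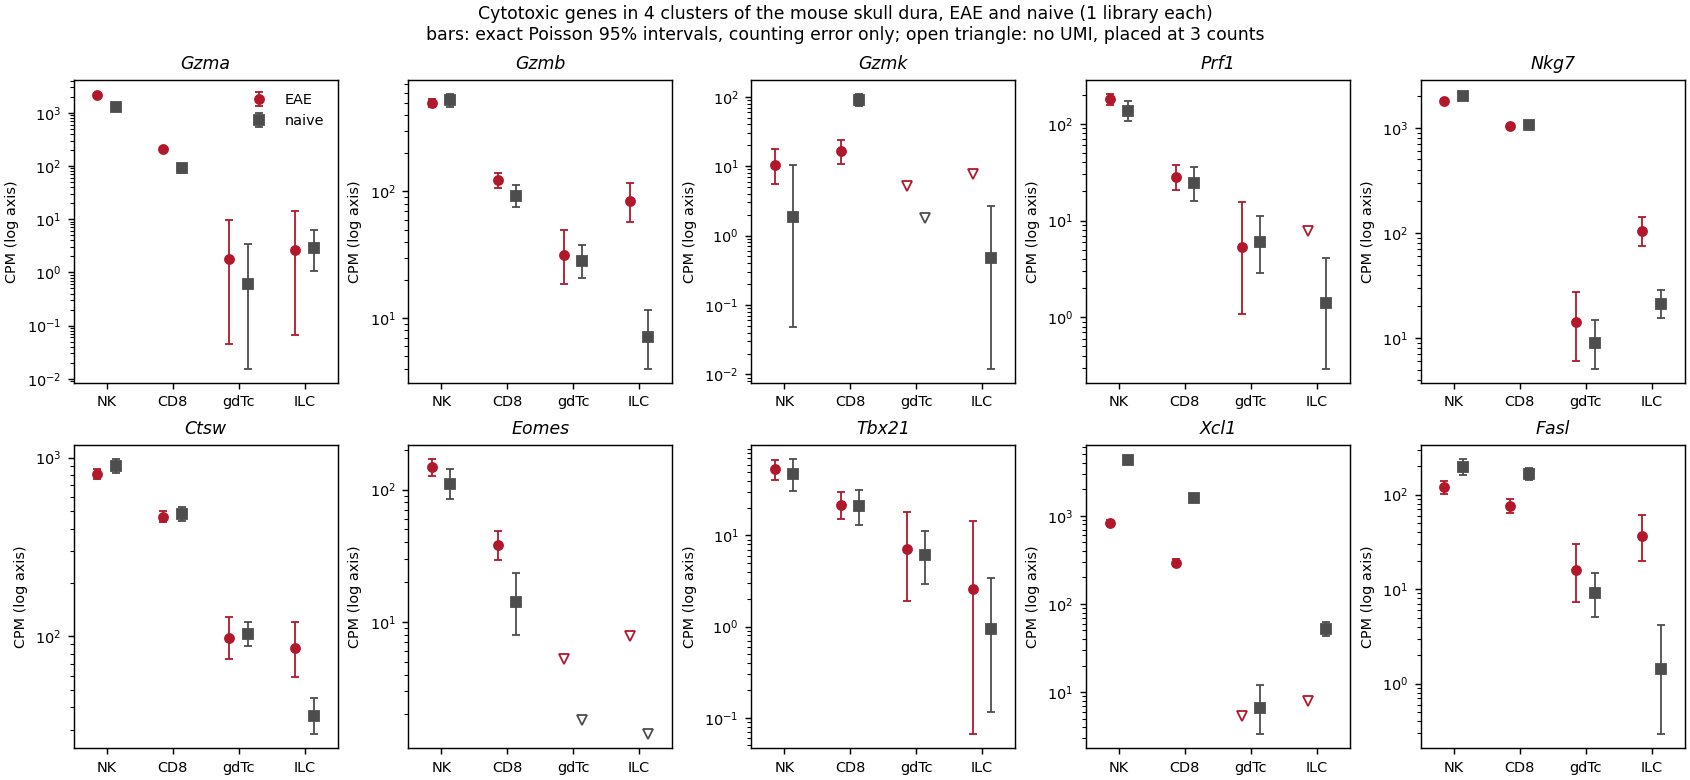
CPM (log axis) of the 10 genes in 4 clusters of mouse skull dura, EAE (red circles) left of naive (grey squares), with exact Poisson 95% intervals; open triangles mark 0 UMIs, placed at 3 counts. Xcl1 stands at 837 CPM in EAE NK cells, against 4276 CPM in naive ones.

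Of 4 other granzymes tested in mouse NK cells 3 were higher and 0 lower, beside 8.01% and 7.06% of all genes. Gzmd had 38 UMIs in EAE, Gzme 43 and Gzmf 75, against 0 UMIs of each in naive cells, and Gzmc was 413 CPM in EAE, against 331 CPM (ratio 1.25, 1.05 to 1.49). Gzmd, Gzme and Gzmf are close copies of each other, so their split is uncertain. Ifng, the main cytokine of NK cells, was 29.0 CPM in EAE, against 220.0 CPM in naive cells. The same held for Ccl4 (93.3, against 463 CPM) and for the tissue-residency receptor Cxcr6 (41.8, against 291 CPM). Of the effector cytokine list 0 of 9 genes tested were higher and 5 lower, beside the same 8.01% and 7.06%. The NK and cytokine receptor list, which holds Cxcr6, went both ways, with 4 of 18 tested higher and 4 lower. Among the higher ones were Klrb1a (104, against 35.7 CPM) and Fcgr3 (80.4, against 32.0 CPM). Among the lower ones, beside Cxcr6, was Itga1 (18.5, against 80.9 CPM). Neutrophil markers in the NK cluster summed to 5747 CPM in EAE and 182 CPM in naive cells, myeloid markers to 1479 and 374, and genes of dissociation stress to 4700 and 9438; their part was not tested.

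The CD8 cluster of the mouse dura (226 EAE and 240 naive cells, median 6965 and 4137.5 UMIs) carried all 8 CD8 T cell markers in both. So did the gdTc cluster, since the list holds Cd3 genes. The list summed to 4917 CPM in EAE and 6211 in naive CD8 cells, and to 5050 and 5883 in gdTc cells. A UMI of Cd8a, Cd8b or Cd8b1 was found in 88 EAE and 82 naive cells of the CD8 cluster. Gzmk, typical of memory-like CD8 cells, was 16.5 CPM in EAE, against 90.9 CPM in naive cells, 5.52-fold lower (3.59 to 8.74), and its thinned share was 1.49% (0.348 to 4.07), against 7.69% (4.64 to 11.8). Xcl1 was 296 CPM in EAE, against 1596 CPM, 5.40-fold lower (4.88 to 5.98). Fasl was 75.8 CPM in EAE, against 167 CPM, 2.20-fold lower (1.74 to 2.78); among cells at or above the lowest EAE total of 5722 UMIs (42 naive cells) its log2 ratio was -0.14.

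Higher in EAE CD8 cells were Gzma (209, against 90.9 CPM; 2.30-fold, 1.83 to 2.92) and Eomes (38.2, against 14.2 CPM; 2.69-fold, 1.52 to 5.08). The Gzma count rested on few cells, since 5 of 226 EAE cells held 88.5% of it and 5 of 240 naive cells 83.3%, and 14.2% and 7.08% of cells had a UMI, where 1.95% of EAE and 0 of 80 naive granulo1 cells did. Without those 5 cells on each side the log2 ratio of Gzma was 0.68, and among the 34 EAE and 197 naive cells with under 3 UMIs of B cell and of myeloid markers it was -1.85. Among cells with a UMI of Cd8a, Cd8b or Cd8b1 (88 EAE and 82 naive), the log2 ratio of Eomes was 0.62. Gzmb (123, against 92.8 CPM), Prf1 (28.2, against 24.6), Nkg7 (1034, against 1056), Ctsw (468, against 483) and Tbx21 (21.7, against 20.8) stayed within 2-fold. Of 10 members tested, 2 were higher and 3 lower past 2-fold, beside 6.38% and 7.92% of all genes (14.3% either way). Neutrophil markers in the CD8 cluster summed to 3756 CPM in EAE and 218 CPM in naive cells, myeloid markers to 1149 and 409 CPM and stress genes to 4023 and 9612 CPM, and their part was not tested beyond the Gzma value without marker-carrying cells.

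Few cytotoxic transcripts were detected in the gdTc cluster (79 EAE and 379 naive cells). Gzmb was 31.6 CPM in EAE, against 28.4 CPM in naive cells, and Ctsw 98.4, against 103. Only 4 of the 10 genes had enough UMIs for a ratio, and none was past 2-fold, where 8.35% of all genes were higher and 8.41% lower (16.8% either way). Nkg7 UMIs were in 3.80% of EAE and 2.90% of naive cells. At 1000 UMIs per cell the shares were 1.03% (0.0124 to 6.45) and 0.785% (0.161 to 2.29), beside 1.35% and 3.02% of granulo1 cells, and were not above that background. Gzma, Gzmk and Eomes had at most 1 UMI per condition. Gzmc, another granzyme, was 45.7 CPM in EAE, against 14.5 CPM (3.15-fold, 1.74 to 5.73), with 26 and 24 UMIs. Neutrophil markers in this cluster summed to 3699 CPM in EAE and 207 CPM in naive cells, myeloid markers to 1614 and 439 and stress genes to 8124 and 18520.5, and their part was not tested.

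The ILC cluster was led by Il5, Il13, Areg and Gata3, and held 53 EAE and 507 naive cells. Its EAE cells carried T cell RNA: the CD4 T cell list summed to 1946 CPM in EAE and 69.5 CPM in naive cells, ILC markers to 4004 and 15617 CPM, and 15 of 53 EAE cells had no Cd3 UMI, against 453 of 507 naive cells. Neutrophil markers summed to 5363 CPM in EAE and 224 CPM in naive cells, myeloid markers to 1545 and 451 CPM and stress genes to 10823 and 24013 CPM. The part of these in the results was not tested. Gzmb was 83.4 CPM in EAE, against 7.09 CPM in naive cells (11.8-fold, 6.19 to 23.4), with 32 and 15 UMIs. Of the EAE count, 87.5% was in 5 cells, and all 15 naive UMIs were in 4 cells. Nkg7 was 104 CPM in EAE, against 21.3 CPM (4.90-fold, 3.12 to 7.67), and Ctsw 86.0, against 35.9 CPM (2.39-fold, 1.54 to 3.65). Xcl1 had 0 UMIs in EAE, against 110 in naive cells (52.0 CPM). At a floor of 3 counts over the group it was 6.65-fold lower, with an exact interval from 5.32-fold upwards. Of the naive Xcl1 count, 87.3% was in 5 cells. Of the 4 members tested, 3 were higher and 1 lower, beside 27.9% and 7.60% of all genes (35.5% either way), and the median log2 ratio over all genes was 0.52. Gzmb UMIs were in 17.0% of EAE and 0.789% of naive cells, where 1.80% of EAE and 0 of 80 naive granulo1 cells had one. For Nkg7 the shares were 20.8% and 3.16%. At 1000 UMIs per cell they were 7.60% (2.12 to 18.3) and 1.37% (0.551 to 2.81), beside 1.35% and 3.02% of granulo1 cells, so the naive share was not above background. Under TMM scaling, which moved all ratios of this cluster by -0.55, the log2 ratio of Ctsw was 0.71, and without the 5 cells with most UMIs on each side it was 0.46, while Nkg7 was 1.17. Gzmb and Xcl1 had too few UMIs for a ratio once the 5 cells with most of them on each side were left out. Without the cells that had a Cd3 UMI, which left 15 EAE cells, the log2 ratio was 4.95 for Gzmb, 2.61 for Nkg7 and 0.73 for Ctsw.

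Across clusters and groups of 50 cells or more, the genes whose log2(CPM + 10) followed Prf1 most closely were, in the rat (42 cluster-by-compartment sums), Gzmk (r = 0.95), Txk (0.95), Tbx21 (0.94), Il2rb (0.94) and Gzmm (0.93). For rat Gzma they were Gzmk (0.92), Gzmb (0.91), Prf1 (0.90), Klrb1a (0.89) and Klrg1 (0.89), and for rat Gzmk they were Klrb1c (0.97), Gzmb (0.97), Klre1 (0.96), Ccl5 (0.96) and Prf1 (0.95). Among the members, Ctsw (0.56) and Xcl1 (0.70) followed rat Gzma least. In the mouse (29 sums) Prf1 was followed by Sult2b1 (0.98), Klrb1c (0.96), Eomes (0.96), Klra3 (0.94) and Klre1 (0.94), and Gzma by Nkg7 (0.92), Il12rb2 (0.92), Tbx21 (0.91), Klrb1c (0.90) and Klrc2 (0.89). Mouse Gzmk stood apart: its closest genes were Dapl1 (0.84), Gimap7 (0.80), Sh2d1a (0.78), Gpr174 (0.76) and Gm2682 (0.75), and its r with Prf1 was 0.47. These values describe sums that share libraries and depth. The sums span all clusters, so r does not describe the order of compartments within the NK cluster. In dural over blood NK cells, the log2 ratio was 2.96 for Xcl1 and -6.35 for Gzma.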

How the data were processed

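All expression values start from deposited raw UMI counts, 1 matrix per species, which the authors produced with Cell Ranger 3.1.0 and the builds mm10 and Rnor_6.0 according to the submitters' processing notes. The rat matrix itself names version 3.0.2, per the file headers. Libraries were of chemistry version 2 in the rat and 3 in the mouse, per the labels' protocols. Clusters, tissues and conditions are the authors' deposited annotation, which covers 21187 of 26301 rat and 7355 of 8126 mouse barcodes; barcodes without one were left out. How clusters were made, and whether these genes entered, is not given in the sources used here, so the genes' height in the NK and CD8 clusters against other clusters is only a description. The 2 B cell receptor samples were not used here.

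Annotated rat libraries held 3486564 to 10083423 UMIs, the EAE library 59256418 and the naive mouse library 15007864. Gene IDs sharing a symbol were added up. CPM have exact Poisson intervals, ratios exact conditional binomial intervals and shares Clopper-Pearson intervals, all at 95%. A ratio over whole clusters needed 50 cells on each side and 20 UMIs over both, and counted as past the threshold at 2-fold. Ratios in subsets of cells kept the 20 UMIs but had no minimum of cells. They are printed without intervals, and some rest on few cells. For a side at 0, the floor of 3 counts over the group was used, and a floor that fell on the wrong side of 1 gave no value, a rule set after values were seen. Thinned shares are hypergeometric expectations at 500 (rat) or 1000 (mouse) UMIs. The code was tested on simulated data.

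Members and lists were chosen with earlier results of these data known. Named were all members, up to 3 genes each way per list and comparison with the largest ratios, and the 5 genes most like Prf1, Gzma and Gzmk over sums of 50 cells or more; the text gives a selection of the list genes, made after their values were seen.

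Scrublet (scanpy 1.11.5) was run per library, and the doublets it called were kept. It marked 1.45% of rat dural, 1.95% of rat blood and 1.57% of EAE cells. Elsewhere it marked 0.0248% to 0.352% and is taken not to have worked. The scaling alternative used TMM factors (edgeR 4.0.16, R 4.3.3). Figures were drawn with matplotlib 3.10.9, and intervals came from scipy 1.17.1 under Python 3.11.15 (with pandas 2.3.3 and numpy 2.4.6). RefSeq promoter windows were matched by symbol for 9 rat genes, Faslg included.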

Additional observations from a re-analysis of the deposited data

Results flagged for a closer look

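In rat NK cells 6 genes were higher than blood in at least 1 compartment and lower in another, each with an interval that excludes 1; these differences between compartments share the blood library and were not tested. For Gzma the log2 ratio was 0.32 in CNS and -6.35 in dura, a difference of 6.68. For Prf1 it was 0.46 in CNS and -4.62 in pia, a difference of 5.08. Tbx21 differed by 3.41 (CNS 0.89, pia -2.53) and Gzmk by 3.31 (CNS 0.16, pia -3.15). Faslg differed by 2.31 (dura 1.02, CSF -1.29) and Ctsw by 1.81 (pia 0.90, or 0.19 without cells with a Cd3 UMI, CNS -0.91). Across mouse clusters, Nkg7 differed by 2.42 between the ILC cluster (log2 ratio 2.29, EAE over naive) and the NK cluster (-0.13), which was not tested either.

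Member UMIs were also at a higher level in EAE than in naive cells in clusters that the comparisons do not use, and free RNA or doublets as a source was not tested. In CD4Tc, Gzma was 257 CPM in EAE against 14.9 CPM in naive cells, Nkg7 429 against 95.9, Ctsw 359.7 against 84.1 and Tbx21 14.7 against 5.50 CPM. In pDC, Nkg7 was 54.0, Ctsw 46.1, Xcl1 21.9 and Gzma 21.1 CPM in EAE, against 0, 11.2, 0 and 0 CPM in naive cells; the EAE values are 69, 59, 28 and 27 UMIs in 126 cells, and the naive ones 0, 4, 0 and 0 UMIs in 48 cells. In mDC1, Gzmb was 16.5 against 0.885 and Nkg7 13.8 against 0.885 CPM (43 and 36 UMIs in EAE, 1 of each in naive cells). In mDC2, Tbx21 was 7.04 against 2.67 and Gzma 6.14 against 1.07 CPM (55 and 48 UMIs in EAE, 5 and 2 in naive cells). In the EAE granulocyte cluster granulo1 the levels were 18.2 CPM for Nkg7, 9.60 for Gzma, 4.70 for Ctsw, 2.94 for Xcl1, 2.16 for Gzmb and 0.686 for Tbx21, so Nkg7 in mDC1 and Gzma in mDC2 were not above this background. Each is 1 library a condition and was not tested.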

How the results depend on the processing

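No paired analysis was possible because each group is 1 library and the labels give no replicate numbers. The count of members past 2-fold was within 1.5 times its value under TMM scaling, equal weight per cell and a minimum of 50 UMIs in all 11 comparisons. It became 2 in rat CNS NK cells and 1 in CSF CD8 cells when the 5 cells with most UMIs of the gene were left out (2 in mouse NK, 1 in ILC). Without a minimum it became 2 (mouse NK) and 1 (gdTc). At or above the lowest EAE total it became 2 (NK), 3 (CD8) and 2 (ILC), and with a Cd8 UMI 3 (CD8). Without cells carrying B cell or myeloid markers it became 1 in gdTc (5 EAE cells left) and 1 in ILC (2 left); no rat CNS NK cell was left. Xcl1 kept its direction under every setting run in rat NK cells (log2 ratios of 1.19 to 3.48) and in mouse NK and CD8 cells (-2.32 to -2.70). Doublets could be left out only for rat dura. Single ratios of members, Faslg and named list genes were also set against their main intervals. Reversed ones apart, 193 stayed inside and 31 left under TMM scaling, and 216 and 8 at equal weight per cell. At or above the lowest EAE total 33 stayed and 36 left. Without marker-carrying cells it was 100 and 58, without Cd3 cells 102 and 33, and without the 5 cells 124 and 58. Reversed log2 ratios were Gzma in mouse CD8 (-1.85, without marker-carrying cells), Gzmm in mouse CD8 (-0.39 in deep cells, -0.13 with a Cd8 UMI), and Ccl4 in rat pial NK (-0.59) and mouse ILC (-0.24, 15 EAE cells) without Cd3 cells, and in ILC (-2.17) without 5 cells. The cause was not tested. The settings on Cd3, 1000 UMIs and 5 cells were chosen after seeing the data.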

Other observations

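Regulatory T cells of the mouse dura, a cluster outside the comparisons above, carried granzyme transcripts with little Prf1. Gzma was 257 CPM in EAE (116 cells) and 1106 CPM in naive Treg cells (30 cells), Gzmk 26.5 and 221 CPM, and Gzmb 258 and 228 CPM. Prf1 was 8.85 and 7.14 CPM, the naive value from 1 UMI. Among the other mouse clusters by condition of 20 cells or more, naive Treg cells were also highest for Nkg7 (735 CPM), Fasl (92.8) and Xcl1 (85.7). The share of Treg cells with these UMIs was not counted, and free RNA or doublets as a source was not tested. In the rat, Xcl1 outside the NK and CD8 clusters was highest in dural pDC, at 161 CPM, and Ctsw in choroid plexus CD4 Tc, at 760.3 CPM. Over the 40 other rat clusters by compartment of 20 cells or more, the median level of Gzma, of Gzmb and of Eomes was 0 CPM.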
